A study of Saccharomyces cerevisiae with 10 samples.

Results

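A group of 9 systematic-name open reading frames of budding yeast, Saccharomyces cerevisiae, had little RNA polymerase signal in control cells and much more after either Nab3 or Nrd1 was removed from the nucleus. They are YOR041C, YGR291C, YBR124W, YNL174W, YCRX03C, YLR232W, YNL150W, YJL026C-A and YBR298C-A, 9 of 6677 features in the deposited tables. They were chosen by their normalised reads in these 6 libraries, low in the control and high after both depletions, so their rises are given as a description with no test. The working name of the group, unannotated open reading frames, held for 8 of the 9, since they have no entry in the RefSeq annotation of assembly R64. YBR298C-A has an entry there as an uncharacterized protein.

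Nab3 and Nrd1 are RNA-binding proteins that act with the helicase Sen1 to end transcription of short noncoding RNAs, among them small nucleolar RNAs (snoRNAs) and cryptic unstable transcripts. They bind short motifs in the nascent RNA and hand the released transcript to the TRAMP complex and the nuclear exosome for trimming or decay. Many cryptic transcripts start at the nucleosome-free regions beside genes and run antisense to them, and loss of the complex is known to let such transcripts extend.

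The assay was PAR-CLIP, in which UV light crosslinks RNA to a tagged protein and the bound RNA is sequenced. By its design text the study mapped RNA polymerase II (Pol II), but the tagged subunit, Rpb2-HTB, is named only for the Nrd1 libraries. Of 10 samples in 5 groups, 3 groups of 2 libraries were used: the cassette strain (NabCassette) without rapamycin, a Nab3-FRB strain (NabFRB) with rapamycin for a time that is not given, and an Rpb2-HTB Nrd1-FRB strain with rapamycin for 45 min. All were grown in synthetic medium with limiting uracil to an optical density of 1, and the molecule sequenced was nuclear RNA. With rapamycin, an FRB-tagged protein binds an anchor that carries it out of the nucleus. The cassette samples carry titles that begin with Nab_WT, but the sources used here do not say what the cassette is. Strain, depletion and rapamycin changed together, so their parts in any difference from the cassette cannot be told apart. The other 4 samples were not analysed here.

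Each library held 7395659 to 13428820 recovered reads. Values below are the reads of a frame divided by the authors' size factor, called normalised reads, on 1 joint scale for all 6 libraries. The labels give no mating type. The 5 a-cell genes read as markers summed to 1397 to 1706 normalised reads per library and the 4 alpha-cell genes to 6951 to 11577. The highest alpha-cell sum was that of Nrd1 library 1, and the next was 8552 in cassette library 2. Among the a-cell genes STE6 had the highest cassette mean at 989, while MFA1 and MFA2 were near the floor at 5.11 and 8.18. The part of these genes in the results was not tested. Cultures were measured in bulk, so a change in the share of cells with signal and in signal per cell cannot be told apart. The 9 frames together held 2.90 and 2.75 of every 100000 reads in the cassette libraries, 31.9 and 31.0 under Nab3 depletion and 29.9 and 26.4 under Nrd1 depletion.

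Positions were found for 8 of the 9 frames on R64, from the order of systematic names, the strand letter and the deposited length. The same steps put 99.9% of the annotated frames with a single candidate at their annotated position (5477 placed correctly and 5 elsewhere). YCRX03C, 309 bases long, carries a name without chromosomal order and was not placed. Sequences are shown for 5 frames on which the results turn, read from the R64 genome of RefSeq and written from the 5′ to the 3′ end of the frame.

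YGR291C (chromosome VII, 1076283 to 1076504, minus strand) and YBR298C-A (chromosome II, 805035 to 805256, minus strand) are shown whole because they are near copies of each other in separate maltose gene clusters. Capitals mark the bases at which they differ:
YGR291C: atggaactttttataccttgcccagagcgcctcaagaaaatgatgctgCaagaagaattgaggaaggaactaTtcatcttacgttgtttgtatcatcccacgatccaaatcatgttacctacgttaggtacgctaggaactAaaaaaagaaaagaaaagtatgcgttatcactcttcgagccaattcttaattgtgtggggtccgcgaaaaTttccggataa
YBR298C-A: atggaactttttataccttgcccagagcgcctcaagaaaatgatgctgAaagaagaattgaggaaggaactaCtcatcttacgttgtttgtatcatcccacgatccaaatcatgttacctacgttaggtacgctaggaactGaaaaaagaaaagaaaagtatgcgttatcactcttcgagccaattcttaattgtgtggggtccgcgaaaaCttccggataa
Of 222 bases, 218 were identical (98.2%). The differences, with the YGR291C base first and positions counted from 1 at the 5′ end of the frame, were C49A, T73C, A142G and T212C. In each, 50.8% of 30-base windows occurred elsewhere in the genome, so reads of the pair may be shared and their values are uncertain. None of the 30-base windows of the other 6 placed frames occurred elsewhere.

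The first 222 bases of YOR041C (chromosome XV, 408568 to 408789, minus strand), YNL174W (chromosome XIV, 308074 to 308295, plus strand) and YJL026C-A (chromosome X, 393066 to 393287, minus strand, the whole frame) are shown because their estimated differences between the depletions were the largest of the 9. Capitals mark TCTTG, a core motif bound by Nab3, on the strand of the frame:
YOR041C: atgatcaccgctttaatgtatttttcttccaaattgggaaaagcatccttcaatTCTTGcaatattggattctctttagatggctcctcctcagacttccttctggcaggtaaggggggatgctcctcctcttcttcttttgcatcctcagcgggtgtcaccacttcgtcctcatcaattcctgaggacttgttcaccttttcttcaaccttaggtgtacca
YNL174W: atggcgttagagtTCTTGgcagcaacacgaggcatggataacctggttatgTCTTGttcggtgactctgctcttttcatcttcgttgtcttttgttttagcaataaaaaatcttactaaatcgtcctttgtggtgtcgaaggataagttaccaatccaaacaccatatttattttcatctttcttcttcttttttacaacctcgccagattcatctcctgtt
YJL026C-A: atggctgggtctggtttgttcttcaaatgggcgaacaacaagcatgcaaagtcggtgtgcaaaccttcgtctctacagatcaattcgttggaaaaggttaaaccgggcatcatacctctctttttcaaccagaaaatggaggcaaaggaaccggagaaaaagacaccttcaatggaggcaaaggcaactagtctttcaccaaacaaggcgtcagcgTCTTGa
TCTTG was searched with TGTAA and TGTAG, motifs bound by Nrd1 that share TGTA, on both strands of the first 222 bases of each placed frame. On the frame strand, TCTTG was present in 4 of 8 frames (the 3 above and YBR124W), against 40.8% of 537 other placed frames and 15.1% of 5718 annotated frames. On the opposite strand it was present in 3 of 8, against 22.2% and 45.6%. TGTAA was present on the frame strand in 0 of 8 and on the opposite strand in 1 of 8, against 19.4% and 21.8% of the other placed frames and 13.9% and 26.6% of annotated frames. TGTAG was present in 1 of 8 on each strand, against 13.8% and 16.0% of the other placed frames and 10.4% and 22.1% of annotated frames. YLR232W and YNL150W held none of the 3 motifs in this window on either strand. A match is a description of letters and not a binding site.

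Of the 8 placed frames, 4 lie antisense across the start of a protein-coding gene. YOR041C (chromosome XV, 408358 to 408789, minus strand) shares 365 bases, 84.5% of its length, with CUE5 and begins inside that gene, while its last 67 bases lie upstream of the CUE5 start. On its own strand it stands between 2 snoRNA genes, 975 bases downstream of SNR62 and 223 bases upstream of SNR9. YBR124W (chromosome II, 486507 to 486866, plus strand) shares 185 bases with TFC1. YNL174W (chromosome XIV, 308074 to 308646, plus strand) shares 539 bases, 94.1% of its length, with NOP13. YLR232W (chromosome XII, 606830 to 607177, plus strand) shares 290 bases with BNA5.

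The other 4 placed frames have other positions. YNL150W (chromosome XIV, 349251 to 349658, plus strand) covers the 3′ end of PGA2 by 292 bases. YJL026C-A lies wholly inside RNR2 on the opposite strand. YGR291C lies 469 bases from MAL11 and 94 bases from the start of MAL12, and YBR298C-A lies 559 bases from MAL31 and 94 bases from the start of MAL32, both in the intergenic stretch between a maltose permease gene and a maltase gene that point away from each other.

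**Figure D1:**
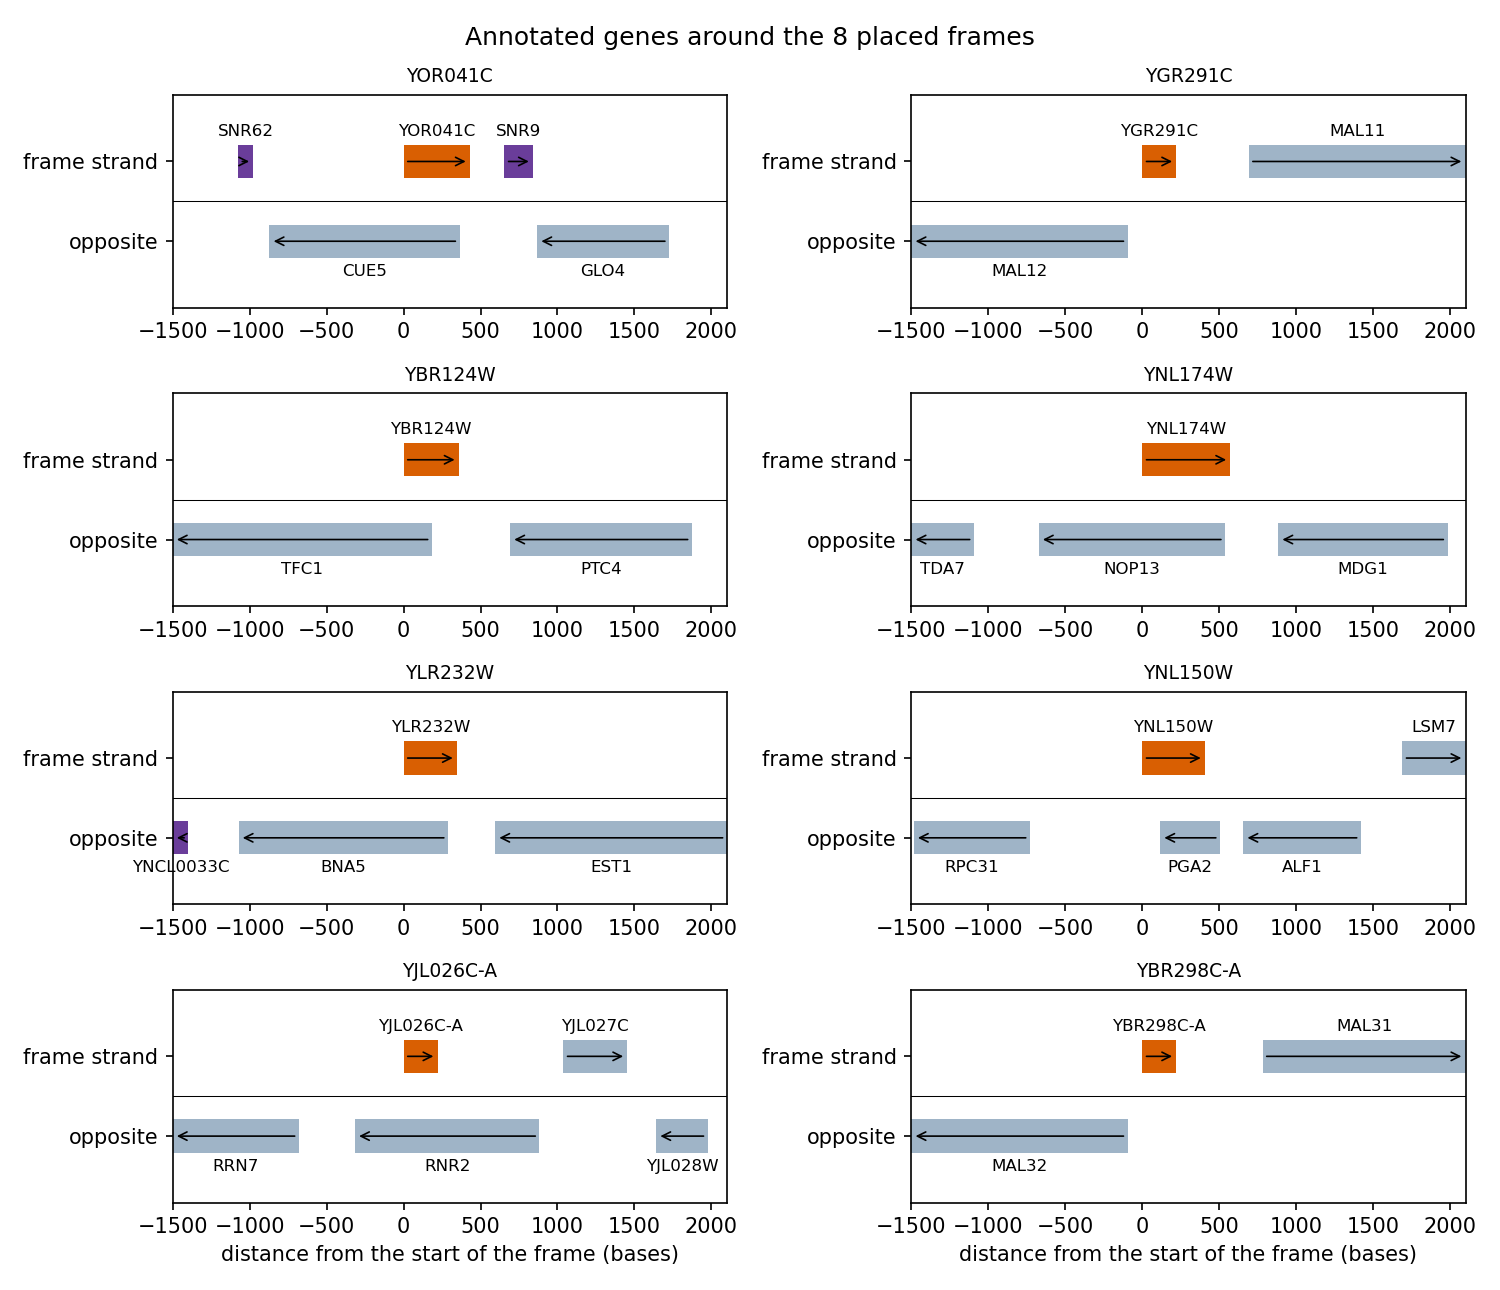
Annotated genes around the 8 placed frames, drawn to scale by distance in bases from the start of each frame, with the frame in orange, protein-coding genes in grey and noncoding RNA genes in purple, and arrows for direction. YOR041C, YBR124W, YNL174W and YLR232W cover the start of the gene below them, YNL150W covers the end of PGA2, YJL026C-A lies inside RNR2, and the 2 maltose-cluster frames overlap no gene.

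In the control, the frames were among the low features of the table. Per kilobase of frame, their cassette means ran from 1.99 normalised reads for YBR298C-A to 312 for YNL174W, at the 2.2 to 19.8 percentile of all features, whose median was 905. After Nab3 depletion they ran from 296 to 3188, at the 18.0 to 90.0 percentile, and under Nrd1 depletion from 234 to 2109, at the 15.9 to 81.9 percentile. In all 9 frames both depleted groups lay above both cassette libraries, as the choice of members requires. Over all features tested, libraries of the depleted group lay above the cassette without overlap in 34.7% under Nab3 depletion and 35.8% under Nrd1 depletion. A rise of at least 4-fold with an adjusted p under 0.05 was called for 0.802% of 6360 features under Nab3 depletion and 0.867% of 6347 under Nrd1 depletion. The members' median log2 fold change was 3.35 under Nab3 depletion and 3.16 under Nrd1 depletion, against -0.005 and -0.004 over all features tested. Both comparisons use the same 2 cassette libraries.

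**Figure D2:**
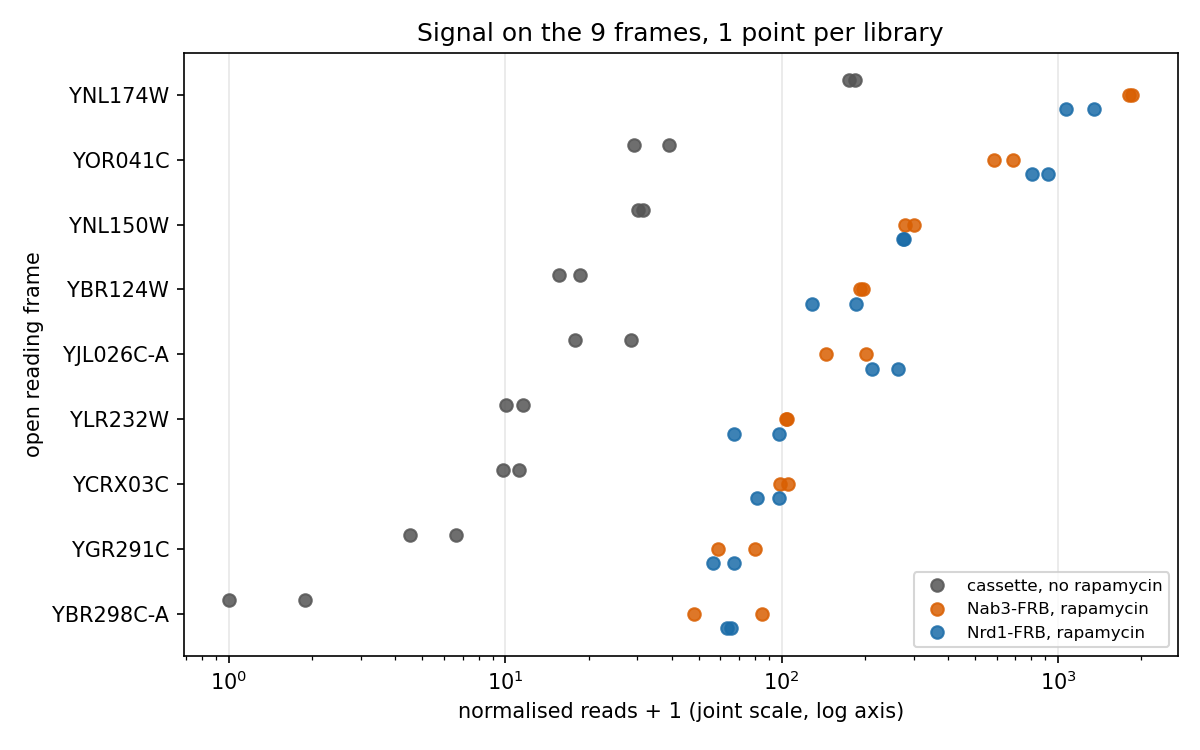
Normalised reads plus 1 on a log axis for the 9 frames, 1 point per library, with the cassette in grey, Nab3 depletion in orange and Nrd1 depletion in blue. Every depleted library stands to the right of both cassette libraries in every frame, YNL174W has the highest values throughout, and the blue points of YOR041C and YJL026C-A lie to the right of their orange points.

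Among the frames across gene starts, YOR041C had 38.0 and 28.2 normalised reads in the cassette, 687 and 583 under Nab3 depletion, and 921 and 803 under Nrd1 depletion. Its group means were 19.2-fold and 26.0-fold above the cassette (log2 fold changes 4.23 and 4.66). Both Nrd1 libraries stood above both Nab3 libraries. YNL174W, the frame with the most reads, had 174 and 183 in the cassette, 1798 and 1855 under Nab3 depletion, and 1352 and 1065 under Nrd1 depletion. Its means were 10.2-fold and 6.77-fold above the cassette, with both Nab3 libraries above both Nrd1 libraries. In reads this was 197 and 162 in the cassette against 2203 and 1523 in the Nab3 libraries, so YNL174W has the smallest counting error of the 9.

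YBR124W had 17.7 and 14.7 normalised reads in the cassette, 195 and 191 under Nab3 depletion, and 184 and 127 under Nrd1 depletion. YLR232W had 10.6 and 9.04 in the cassette, 103 and 104 under Nab3 depletion, and 96.5 and 66.4 under Nrd1 depletion. In both frames the Nab3 libraries lay close together and above the Nrd1 libraries, which differed from each other by more. Group means were 11.9-fold and 9.63-fold above the cassette for YBR124W and 10.5-fold and 8.29-fold above it for YLR232W.

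YNL150W, at the end of PGA2, had 29.2 and 30.5 normalised reads in the cassette, 299.6 and 279 under Nab3 depletion, and 273 and 276 under Nrd1 depletion. Its rises, 9.69-fold and 9.21-fold, were the most alike of the frames across genes. YJL026C-A, inside RNR2, had 27.4 and 16.9 in the cassette, 199.98 and 144 under Nab3 depletion, and 210.4 and 263 under Nrd1 depletion, with rises of 7.75-fold and 10.7-fold. Like YOR041C, it was higher in both Nrd1 libraries than in either Nab3 library. YCRX03C, the unplaced frame, had 8.84 and 10.2 in the cassette, 104 and 97.4 under Nab3 depletion, and 80.4 and 96.9 under Nrd1 depletion, 10.6-fold and 9.33-fold above the cassette by means.

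Of the maltose-cluster pair, YGR291C had 3.54 and 5.65 normalised reads in the cassette, 58.0 and 79.2 under Nab3 depletion, and 55.5 and 66.4 under Nrd1 depletion. YBR298C-A had 0.884 and 0 in the cassette, 47.3 and 84.0 under Nab3 depletion, and 64.3 and 62.4 under Nrd1 depletion. YGR291C was 14.9-fold and 13.3-fold above the cassette by means. After depletion the pair reached overlapping levels, and the cassette libraries held 9 reads of 1 frame and 1 read of the other. For YBR298C-A, 127 reads in the Nab3 libraries stood against 1 in the cassette, a ratio of 125 after size-factor scaling with a 95% exact interval from 22.1 to 4981, and 91 reads in the Nrd1 libraries gave a ratio of 128 (22.3 to 5096). Such intervals hold counting error alone, as PCR copies without identifiers may be counted more than once. YBR298C-A was also chosen on these same reads, so the intervals describe the counts and are no test of its rise. Its log2 fold changes, 5.55 and 5.37, depend on the pseudocount and ran from 3.65 to 7.04 and from 3.45 to 6.998 over the settings tried.

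The choice of these 9 leaves similar features just outside. The smallest member rise was that of YNL174W under Nrd1 depletion, at 2.74 in log2. At least that much in both comparisons was also reached by 6 features that are not members, namely YDR042C, YHR214C-D, YAR069C, CSM4, YIR020W-A and YDR526C, of which 3 have no entry. Just below came IMD1 at 2.63 and YOR331C at 2.53, each given by the smaller of its rises.

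The difference between Nab3 and Nrd1 depletion was not itself a rule for members. Both depletions had to be high, however, which limits how far members can differ between them. The difference was tested in 1 fit over all 6 libraries and 6385 features. YNL174W was 1.51-fold higher under Nab3 depletion, at 1827 ± 40.2 against 1208 ± 203 normalised reads (SD, n = 2 each; log2 difference 0.61 ± 0.11 SE, adjusted p = 0.00676 by limma with Benjamini-Hochberg adjustment). It was the 1 member called of 9, where 21% of all features tested were called. Of these 772 (12.1%) were higher and 569 (8.91%) lower under Nab3 depletion, or 634 and 817 with upper-quartile scaling. The call was lost without Nab3 library 2 (adjusted p = 0.0543), without Nab3 library 3 (adjusted p = 0.0693) or with no filter on low values (adjusted p = 0.0527), and its adjusted p ranged from 3.06e-05 to 0.0693 over the settings tried.

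YOR041C was lower under Nab3 depletion, at 635 ± 73.4 against 862 ± 83.1, a log2 difference of -0.44 (95% interval -0.81 to -0.07) that did not pass after adjustment (limma adjusted p = 0.0879). It passed in edgeR (adjusted p = 0.0294), in DESeq2 (adjusted p = 0.0223), without Nrd1 library 2 (limma adjusted p = 0.033) and with the 4 depleted libraries alone (limma adjusted p = 0.0448). YJL026C-A leaned the same way at -0.47 (-1.07 to 0.13, limma adjusted p = 0.23), and the interval holds both no difference and more than a 2-fold one. YBR124W at 0.33 (-0.18 to 0.84) and YLR232W at 0.36 (-0.23 to 0.96) did not pass. The narrowest interval around 0 was that of YNL150W, at 0.07 (-0.26 to 0.41), and the widest that of YBR298C-A (-0.99 to 0.98).

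YCRX03C at 0.19 (-0.35 to 0.73) and YGR291C at 0.16 (-0.58 to 0.89) did not pass either. Libraries did not overlap in 7 of 9 members, 5 of them higher after Nab3 and 2 higher under Nrd1 depletion, against 61.1% of all features in either direction, 31% higher after Nab3 and 30.1% higher under Nrd1 depletion. The members' median difference was 0.16 against 0.003 over all features.

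**Figure D3:**
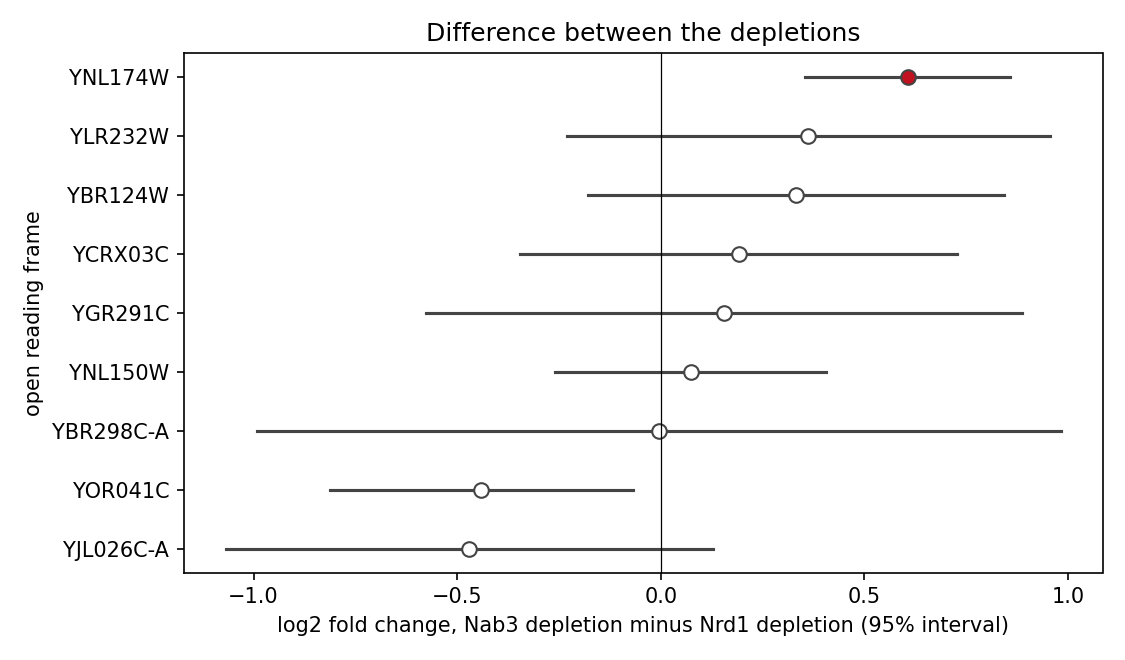
Log2 fold change of Nab3 depletion minus Nrd1 depletion for the 9 frames, with 95% intervals from limma, and the frame that passed the adjusted threshold filled in red. YNL174W lies at 0.61 with its interval above 0, YOR041C lies at -0.44 with its interval below 0 before adjustment, and the intervals of the other 7 hold 0.

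The genes that 6 of the frames overlap had log2 fold changes between -0.53 and 0.64, where the frames themselves stood at 2.74 or more. CUE5, which encodes a ubiquitin-binding adaptor of selective autophagy, lies opposite YOR041C. It had 1186 and 1244 normalised reads in the cassette, 876 and 999 under Nab3 depletion, and 855 and 939 under Nrd1 depletion, and fell by 0.38 (limma adjusted p = 0.000944) and by 0.44 (limma adjusted p = 0.00604) in log2. The first call was lost with no filter on low values (adjusted p = 0.0549) and the second when either cassette library was left out (adjusted p = 0.055 without library 1 and 0.0776 without library 2).

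NOP13, which encodes a nucleolar RNA-binding protein and lies opposite YNL174W, rose from 2440 and 2581 in the cassette to 3837 and 3992 under Nab3 depletion and 3475 and 3663 under Nrd1 depletion (log2 fold changes 0.64 and 0.51, limma adjusted p = 3.62e-07 and 0.00162). PGA2, which encodes an essential membrane protein, fell by 0.34 (limma adjusted p = 0.000326) and by 0.53 (limma adjusted p = 0.00884). The second call was lost without cassette library 1 (adjusted p = 0.0696), without the trend in eBayes (adjusted p = 0.053) and with no filter (adjusted p = 0.0705). TFC1, a subunit gene of the Pol III factor TFIIIC, had log2 fold changes of 0.16 (limma adjusted p = 0.0559) and 0.02 (limma adjusted p = 0.902).

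RNR2, the small subunit gene of ribonucleotide reductase, rose by 0.24 under Nab3 depletion (limma adjusted p = 0.00925), a call lost with no filter (adjusted p = 0.0765), without the trend (adjusted p = 0.0676) and without cassette library 1 (adjusted p = 0.0623). After Nrd1 depletion it stood at 0.02 (adjusted p = 0.929), with 1483 and 1115 in the 2 libraries, so that leaving out 1 of them gave calls in opposite directions (-0.19 without library 1, 0.22 without library 2). BNA5, the kynureninase gene of NAD synthesis, had 528 and 499 in the cassette, 455 and 442 under Nab3 depletion, and 629.9 and 685 under Nrd1 depletion. It rose by 0.35 under Nrd1 depletion (limma adjusted p = 0.0249, lost without cassette library 1 at 0.148 or 2 at 0.213). Its difference between the depletions, -0.55 in log2, passed the test (limma adjusted p = 0.00435).

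Set against the gene it overlaps, per kilobase, each frame was low in the cassette. YNL174W stood at 15.0% of NOP13, YJL026C-A at 9.43% of RNR2, YBR124W at 8.56% of TFC1, YOR041C at 7.80% of CUE5, YLR232W at 7.49% of BNA5 and YNL150W at 1.09% of PGA2. After Nab3 depletion YOR041C reached 194% of CUE5 and YNL174W 98.7% of NOP13, while the others reached 13.4% to 91.4%. After Nrd1 depletion YOR041C reached 275% of CUE5 and YJL026C-A 98.5% of RNR2, and the others reached 14.5% to 81.2%. Whether strand was used in counting is not given in the sources used here, so reads of a frame and of its opposite-strand gene could be told apart only if strand was used. Among 50 other frames that lie inside an opposite-strand gene, the median level per kilobase in the cassette was 6.40% of that gene, and 30 of the 50 were under 10%. After Nab3 depletion their median was 11.3%, with 23 of the 50 under 10%, and after Nrd1 depletion it was 14.6%, with 21 of the 50 under 10%.

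**Figure D4:**
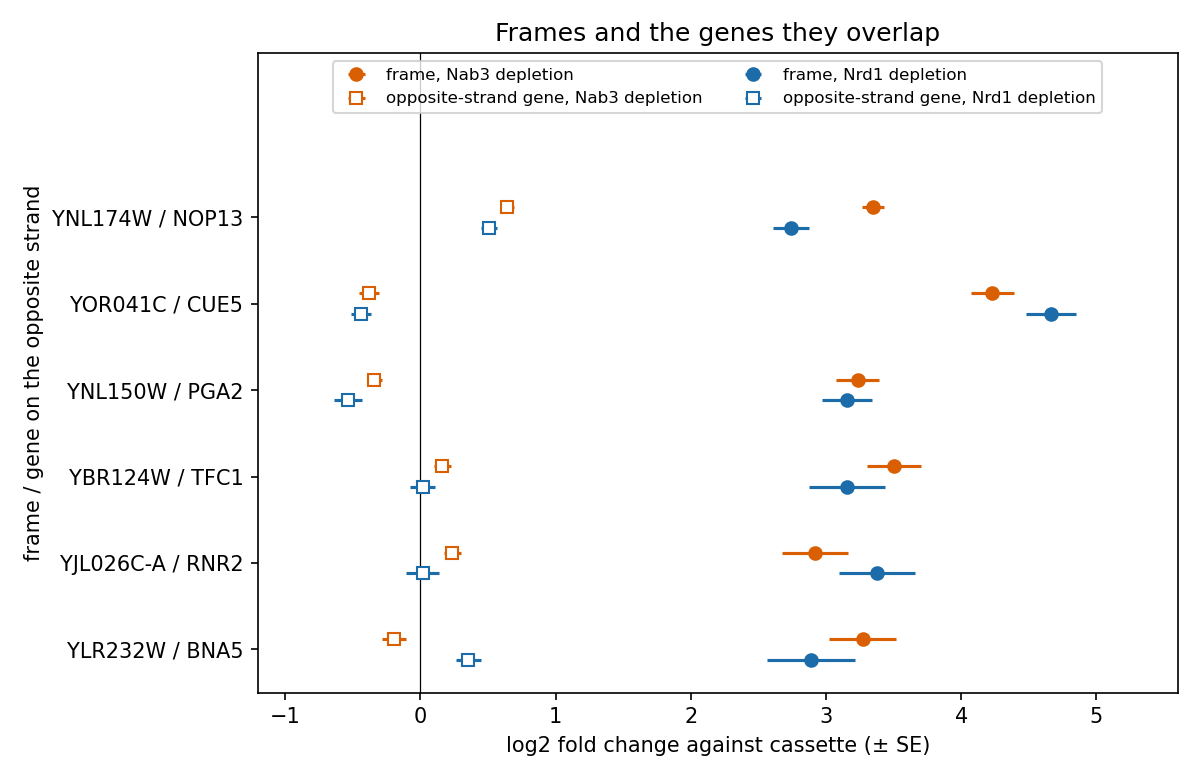
Log2 fold change against the cassette (± SE) for 6 frames (filled circles) and the gene each overlaps on the opposite strand (open squares), with Nab3 depletion in orange and Nrd1 depletion in blue. The frames lie at 2.74 or above and the genes between -0.53 and 0.64.

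Every feature next to a member in systematic-name order was also read, 18 in all. Of 18 tested under Nab3 depletion 9 rose, 4 fell and 5 did not pass, and of 17 tested under Nrd1 depletion 8 rose, 5 fell and 4 did not pass. The 9 rises include YGR290W, which passed the filter on low values only through its Nab3 libraries. Over all features, 21.1% rose and 18.7% fell under Nab3 depletion, and 17.5% rose and 17.8% fell under Nrd1 depletion. That Nrd1 total of 2238 calls dropped to 640 without cassette library 1 and 719 without library 2, and rose to 3617 without Nrd1 library 2, and the Nab3 total of 2528 dropped to 1672 without cassette library 1. The median log2 fold change of the neighbours was 0.21 and 0.10. Without cassette library 1 the Nrd1 count dropped to 4 rises and 0 falls, and without library 2 to 3 rises and 1 fall. NOP13, MAL32 and YJL027C rose in both of these settings.

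The maltose clusters held several of the rises. MAL32 and MAL12, the maltase genes whose starts lie 94 bases from the 2 frames, share 90.0% of their 30-base windows with other places in the genome and their values are uncertain. MAL32 had 111 and 122 normalised reads in the cassette, 344 and 381 under Nab3 depletion, and 231 and 258 under Nrd1 depletion, and rose by 1.63 and 1.06 in log2 (limma adjusted p = 1.17e-07 and 0.00315). MAL12 rose by 1.64 (limma adjusted p = 1.79e-06) and 1.05 (limma adjusted p = 0.0106, lost without cassette library 2 at 0.0816 and with no filter at 0.0727).

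MAL31, the maltose permease gene beside YBR298C-A, rose by 0.50 (limma adjusted p = 0.000213) and 0.34 (limma adjusted p = 0.027, lost without either cassette library at 0.158 and 0.244). MAL33, the activator gene of that cluster, went opposite ways. It rose by 0.22 under Nab3 depletion (limma adjusted p = 0.0181, lost without cassette library 1 at 0.0935 or 2 at 0.14) and fell by 0.43 under Nrd1 depletion (limma adjusted p = 0.0266, lost without cassette library 1 at 0.165 or 2 at 0.128), with a difference of 0.65 (limma adjusted p = 0.00399). YGR290W, an unnamed frame on the opposite strand beside YGR291C, had 4 and 1 reads in the cassette against 30 and 9 under Nab3 depletion and 11 and 6 under Nrd1 depletion. It rose by 2.49 under Nab3 depletion (limma adjusted p = 0.00212, lost with no filter at 0.0604) and was too low to be tested under Nrd1 depletion.

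YJL027C moved more than the remaining neighbours. That gene of unknown function lies 816 bases downstream of YJL026C-A on the same strand and had 31.8 and 33.9 normalised reads in the cassette, 93.9 and 81.6 under Nab3 depletion, and 158 and 102 under Nrd1 depletion (log2 fold changes 1.39 and 1.91, limma adjusted p = 7.90e-05 and 0.00281). As in the frame upstream of it, both Nrd1 libraries were above both Nab3 libraries, an order that 30.1% of all features had. The difference between the depletions passed for neither YJL027C nor YJL026C-A (limma adjusted p = 0.148 and 0.23). GLO4, which encodes mitochondrial glyoxalase II and lies beyond SNR9 from YOR041C, fell by 0.73 (limma adjusted p = 1.70e-05) and 0.52 (limma adjusted p = 0.0361, lost without cassette library 1 at 0.18 or 2 at 0.167). RPC31, a Pol III subunit gene, fell by 0.32 and PTC4, a protein phosphatase gene, rose by 0.23 under Nab3 depletion (limma adjusted p = 0.00162 and 0.00722). Under Nrd1 depletion RPC31 fell by 0.21, PTC4 rose by 0.34 and RRN7, a Pol I factor gene, rose by 0.25 (limma adjusted p = 0.0464, 0.00687 and 0.0263), and each of these 3 calls was lost when cassette library 1, or library 2, was left out. The RPC31 call under Nab3 depletion was lost with no filter on low values (limma adjusted p = 0.0579), and that of PTC4 without cassette library 2 (limma adjusted p = 0.076). EST1, MDG1 and TFC1 passed in neither comparison.

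Rises were also common among the other features without a RefSeq entry. With the members left out, 34.5% of 571 tested rose under Nab3 depletion and 33.2% of 563 under Nrd1 depletion, against 19.6% and 15.8% of features with an entry. Their median log2 fold changes were 0.28 and 0.49, against -0.02 and -0.02. Rises of at least 4-fold made up 4.38% and 4.80% of the features without an entry, and 0.294% and 0.329% of those with one. These shares are descriptions, with no test between the classes, and they rest on the same calls as the totals above. The filter on low values kept 571 of 757 features without an entry under Nab3 depletion, and 5780 of 5911 with one. A feature low in the cassette passes that filter only where its depleted libraries are high. The filter alone therefore moves these shares and medians upward, more so where many features are low, by an amount that was not tested.

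Position against annotated genes was read for the 601 other frames without an entry that could be placed. Frames across the start of an opposite-strand gene were 35.6% of them, and this position is that of 4 of the 8 placed members. Of those tested 47.9% rose under Nab3 depletion and 33.5% under Nrd1 depletion, with medians of 0.60 and 0.69, against 34.9% and 32.6% of all the placed frames. Frames across the end of an opposite-strand gene had medians of 0.21 and 0.49, and 35.9% and 41.1% of them rose, so that under Nrd1 depletion their share was above that of the frames across a start, a difference that was not tested. Frames inside an opposite-strand gene had medians of 0.08 and 0.43, and 24.1% and 14.8% rose. Frames with no overlap had medians of 0.15 and 0.36, and 27.3% and 31.0% rose. Frames overlapping a gene on the same strand, a position no member has, had medians of -0.11 and 0.18, and 1.89% and 17.3% of them rose. Under Nab3 depletion the filter kept 188 of 214 frames across a start and 142 of 143 across an end. It kept 29 of 63 inside frames, 66 of 101 with no overlap and 53 of 80 on the same strand. The shares and medians hold only for the frames kept, and the filter moves them by unequal amounts.

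**Figure D5:**
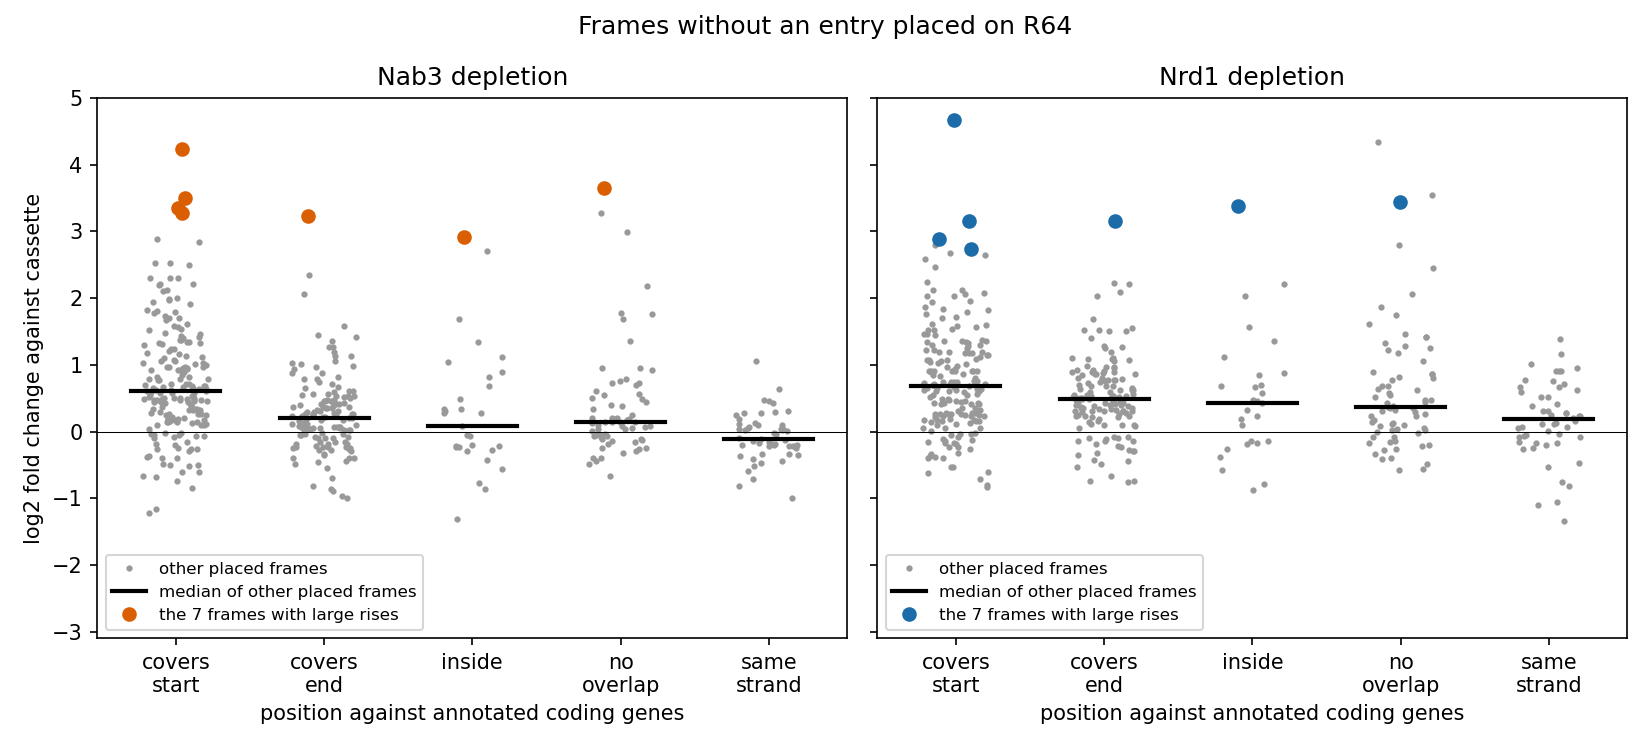
Log2 fold change against the cassette for frames without a RefSeq entry that were placed on R64, by position against annotated coding genes, with grey points for other frames, black lines for their medians and coloured points for 7 of the 9 frames described here. YBR298C-A, which has an entry, and YCRX03C, which was not placed, are left out. The grey medians are highest for frames across the start of an opposite-strand gene, at 0.60 and 0.69, and the coloured points lie between 2.74 and 4.66.

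The features outside the group whose profile was most like it were ranked by distance over the 6 libraries from the members' median profile, on log2 values with the cassette mean removed, among 6376 candidates. The nearest were CSM4, a gene of meiotic chromosome movement, at a distance of 0.57, IMD1 at 0.97, YDR526C at 1.04, YER079C-A at 1.52 and GRE1, a stress-induced gene, at 1.54. Of the members, YNL150W lay closest to the median at 0.29 and YBR298C-A farthest at 4.58. CSM4 had log2 fold changes of 3.01 and 3.004, below the members' medians of 3.35 and 3.16. YDR526C and YER079C-A have no entry and, like 4 of the members, cover the start of an opposite-strand gene, RBA50 and AIM9. IMD1 has near-identical copies and its value is uncertain.

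The genes of the termination complex itself were read in the same fits. NRD1 rose from a cassette mean of 2031 to 8011 under Nab3 depletion and 8528 under Nrd1 depletion (log2 fold changes 1.98 and 2.07, limma adjusted p = 1.75e-11 and 1.73e-05), and SEN1 rose by 0.99 and 1.13. NAB3 fell by 0.16 under Nab3 depletion (limma adjusted p = 0.027, with the highest adjusted p of 0.193 without cassette library 2) and stood at -0.12 under Nrd1 depletion. The anchor moves the protein and leaves the gene intact, so these reads do not measure how much of the protein left the nucleus. Of 35 genes of termination, the exosome and TRAMP, 6 rose and 10 fell under Nab3 depletion, and 9 rose and 3 fell under Nrd1 depletion, with medians of -0.06 and 0.02. Over all features tested 21.1% rose and 18.7% fell under Nab3 depletion, and 17.5% and 17.8% under Nrd1 depletion. The 16 calls under Nab3 depletion dropped to 9 without the trend in eBayes and to 10 without cassette library 1, and the 12 under Nrd1 depletion dropped to 7 when cassette library 1, or library 2, was left out and rose to 22 without Nrd1 library 2.

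The largest rises among the partner genes were REF2 at 1.34 and 1.42 and HRP1 at 0.93 and 1.18, both of 3′ end processing. TRF5, a TRAMP polymerase gene, rose by 0.32 and 0.34, the second call being lost without cassette library 1 (limma adjusted p = 0.064) or 2 (limma adjusted p = 0.0589). RRP40, an exosome gene, rose by 0.34 under Nrd1 depletion (limma adjusted p = 0.0124, lost at 0.14 without cassette library 2). The larger falls under Nab3 depletion were in CSL4, an exosome gene, at -0.34 and PTI1 at -0.32, and under Nrd1 depletion in RTT103 at -0.38 and GLC7 at -0.31. The GLC7 call was lost without cassette library 1 (limma adjusted p = 0.167) or 2 (limma adjusted p = 0.0998), and the RTT103 call without cassette library 1 (limma adjusted p = 0.113). AIR2, a TRAMP gene, and SWD2, of 3′ end processing, fell by 0.27 and 0.26 under Nab3 depletion (limma adjusted p = 0.00189 and 0.0118), the SWD2 call being lost without cassette library 1 (limma adjusted p = 0.062) or Nab3 library 3 (limma adjusted p = 0.0762). RRP45, an exosome gene, fell by 0.24 under Nrd1 depletion (limma adjusted p = 0.0315, lost at 0.287 without cassette library 1 and 0.101 without 2).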

How the data were processed

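The assay was PAR-CLIP on nuclear RNA, and the submitters' processing notes name Bowtie 1.1.1, DESeq, R64 and sacCer3 without saying how each was used. Which counter was used, whether it kept strand and how it treated reads with several matches is not given in the sources used here. Values used here are, as deposited, a normalised signal, that is, read counts per feature that the authors scaled with a size factor for each library within each of 2 tables, as the values themselves show. Dividing by the value of 1 read gave whole reads for 100% of values in every column, to within 0.01 reads. The authors also deposited a gene length per feature, used here for positions and levels per kilobase, and their comparison tables with log2 fold changes and p-values, which were not used.

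The cassette columns of both tables held the same reads, so the Nrd1 table was multiplied by 1.18 to give the joint scale. Tests used limma 3.58.1 (lmFit, eBayes with a trend, R 4.3.3) on log2(value + 1) and kept features whose mean was 10 or more, with Benjamini-Hochberg adjustment over all features tested and a threshold of 0.05. Fold changes on this scale understate those of low features. Each comparison with the cassette was fitted on its own table as deposited, and only the difference between the depletions on the joint scale. The pseudocount and the filter therefore weigh differently in the Nab3 and Nrd1 comparisons, mostly for low features. YBR298C-A had log2 fold changes of 5.55 and 5.37 but a difference of -0.0049 on the joint scale. Of 6677 features 5912 matched RefSeq R64 by symbol, locus tag or unique synonym, and 608 of the other 765 were placed by name order, strand and length.

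edgeR 4.0.16 and DESeq2 1.42.0 were run on the recovered reads as alternatives. edgeR called 1363 rises and 1159 falls under Nab3 depletion and 1128 and 1152 under Nrd1 depletion. DESeq2 called fewer, 1015 rises and 766 falls under Nab3 depletion and 887 and 841 under Nrd1 depletion. On simulated data, limma recovered 63 of 67 features changed 1.5-fold for Nab3, 55 of 67 for Nrd1 and 57 of 67 for the difference between the depletions. At 2-fold it recovered 65, 61 and 65 of 67, and at 4-fold 66, 66 and 65 of 66. It also called 13 of 6160, 33 of 6147 and 16 of 6185 unchanged features. Beside the correct calls these wrong calls are a larger share than beside all unchanged features, most of all for Nrd1. The simulation changed far fewer features than were called in the data and took library sizes as known.

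The Nab3 columns are numbered 2 and 3 and the sample titles 1 and 2, so these columns were assigned to their group only. Separate cultures are not mentioned in the labels, and p-values measure only how these libraries vary.

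The members, gene lists and tests were chosen with earlier results of these data known. Named genes are all members, the neighbours called in either comparison, NRD1, NAB3 and SEN1, of the partner list, and of the list of exosome and TRAMP genes, the 2 highest rises and 2 lowest falls called per comparison, and the 5 features nearest in profile. YDR042C, YHR214C-D, YAR069C, YIR020W-A and YOR331C are named for the edge of the choice, after their values were seen. MTR3, DIS3, STO1 and RAT1 are named because they passed in the difference between the depletions.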

Additional observations from a re-analysis of the deposited data

Results flagged for a closer look

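The following features differed between Nab3 and Nrd1 depletion by a test of that difference itself (limma, 6 libraries, adjustment over 6385 features), each given as the log2 value after Nab3 minus that after Nrd1 depletion. Among the members this was YNL174W at 0.61 (adjusted p = 0.00676). Among genes beside members, MAL32 stood at 0.57 (adjusted p = 0.0178), MAL33 at 0.65 (adjusted p = 0.00399) and BNA5, which YLR232W overlaps, at -0.55 (adjusted p = 0.00435). BNA5 had means of 514 normalised reads in the cassette, 448 after Nab3 depletion and 657 after Nrd1 depletion, while YLR232W on the opposite strand had the higher mean after Nab3 depletion. IMD1, near the members in profile, stood at 0.41 (adjusted p = 0.0158).

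Among genes of 3′ end processing and TRAMP, PTI1 stood at -0.79 (adjusted p = 0.00015), AIR2 at -0.39 (adjusted p = 0.00369), SWD2 at -0.28 (adjusted p = 0.0478) and HRP1 at -0.26 (adjusted p = 0.0327). Of the partner and exosome lists, MTR3 at -0.26 (limma adjusted p = 0.0137) and DIS3 at -0.25 (limma adjusted p = 0.014) also passed. So did STO1 at -0.21 (limma adjusted p = 0.0466) and RAT1 at -0.18 (limma adjusted p = 0.0457). The YNL174W call depends on the settings, as given above, and the other differences are given for the main fit alone. PTI1 had means of 1425 normalised reads in the cassette, 1144 after Nab3 depletion and 1986 after Nrd1 depletion.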

How the results depend on the processing

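Without the filter on low values, called features numbered 1566 in place of 2528 after Nab3 depletion, 1283 in place of 2238 after Nrd1 depletion and 810 in place of 1341 for the difference between the depletions, with 0 members in place of 1 in that difference and 5 neighbours in place of 13 after Nrd1 depletion. Without the trend in eBayes the difference gave 775, the Nrd1 neighbours 8, and the termination and decay genes after Nab3 depletion 9 in place of 16. With the 4 depleted libraries alone the difference gave 800 features and 2 members, YNL174W and YOR041C, and edgeR and DESeq2 also called 2 members. Leaving out 1 library at a time gave 1672 to 2803 features after Nab3 depletion, 640 to 3617 after Nrd1 depletion (640 and 719 without cassette library 1 or 2, 3617 without Nrd1 library 2) and 411 to 2079 for the difference. It gave 0 to 2 members in the difference, 11 to 12 neighbours after Nab3 and 4 to 14 after Nrd1 depletion, and 10 to 20 and 7 to 22 termination and decay genes. Where that leaves 1 library in a group, it is assumed to vary like the others. Directions reversed for the difference of YGR291C (-0.0661 without Nab3 library 3, 0.3775 without 2) and YBR298C-A (0.0076 in edgeR, 0.0343 in DESeq2, 0.40 without Nab3 library 2 and -0.4124 without 3, 0.0165 without Nrd1 library 1), for RRN7 after Nab3 depletion (-0.0042 without cassette library 1, -0.0334 without Nab3 library 3, 0.1409 without 2), and after Nrd1 depletion for RNR2 (-0.19 without Nrd1 library 1, 0.2224 without 2) and SWD2 (-0.0004 without cassette library 2, -0.0479 without Nrd1 library 1, 0.0846 without 2). The cause was not tested.

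Cassette and Nrd1 libraries share the numbers 1 and 2, but their deviations did not go together (r = 0.0133 across 6347 features, which are not independent replicates). With the replicate number as a block, the Nrd1 comparison called 2243 features in place of 2238, and the RPC31 call was lost (limma adjusted p = 0.0521). The Nab3 columns carry other numbers, so no such pairing was possible there.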
